A study of Mus musculus with 16 samples.

Results

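Regulatory T cells (Tregs) from injured skeletal muscle were compared between mTreg24 T cell receptor (TCR) transgenic mice and transgene-negative mice. The comparison was chosen by the sample labels and rested on 4 of the 16 libraries of the series, 2 from transgenic (Tg) and 2 from control (WT) muscle. Of the 52997 genes in the count table, 13188 held enough counts to be tested. Of these, 138 belonged to the T cell receptor and immunoglobulin loci. They are named receptor genes below and are described apart from the other 13050.

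All mice were of a C57BL/6 (B6) background with a Foxp3-GFP reporter and were 6 to 8 weeks old. Tg mice were mTreg24 TCR-tg+ and WT mice were mTreg24 TCR-tg-. Muscle Tregs of both genotypes were sorted 3 days after injection of Ctx (cardiotoxin), a snake venom toxin that kills muscle fibres. The day for the WT mice, muscle and spleen, was taken from the text on the whole experiment. In Tg mice the sort kept Tregs that carried Vβ8, and in WT mice it kept all Tregs. Genotype and sort gate therefore cannot be told apart in any result below. Spleen Tregs of the same genotypes, also taken 3 days after injury, served for a comparison between tissues. A further 2 libraries came from spleens of uninjured Tg mice. The labels do not say whether the 2 libraries of a group came from separate mice, so the p-values measure the spread between libraries, which may be technical. That spread was estimated over all 10 Treg libraries, spleen included. Against counting noise, replicates had a chi-square per degree of freedom of 31.9 in WT muscle and 9.92 in Tg muscle. In the spleen groups it was 5.90 to 8.03.

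Tregs are CD4 T cells that restrain other immune cells, and their identity is held by the transcription factor Foxp3. In injured muscle they accumulate within days and are known to promote repair. Each T cell assembles 1 receptor from variable (V), diversity (D) and joining (J) segments joined to a constant (C) region. A population of normal T cells therefore carries many receptors, while cells with a rearranged transgene largely carry 1.

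The V segments that separated the genotypes were Trbv13-2 in the beta chain and Trav9-4 in the alpha chain. Vβ8 is the older name of the Trbv13 family, whose 3 members differ by few bases, and so does Trav9-4 from its near copy Trav9n-4. The following V exons (GENCODE M21, build GRCm38, plus strand, 294 bases each) show which stretches could tell the copies apart in reads of 25 bases. Capitals mark bases that differ from the first member of each pair or trio. They are reference sequences and were not read from the libraries.
Trbv13-2 (chr6:41121539-41121832): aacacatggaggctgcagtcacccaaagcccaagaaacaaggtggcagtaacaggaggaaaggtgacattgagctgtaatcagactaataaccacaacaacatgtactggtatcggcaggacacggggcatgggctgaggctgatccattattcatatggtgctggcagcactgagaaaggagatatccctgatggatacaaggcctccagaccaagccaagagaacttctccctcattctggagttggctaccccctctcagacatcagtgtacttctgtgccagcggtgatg
Trbv13-1 (chr6:41116175-41116468): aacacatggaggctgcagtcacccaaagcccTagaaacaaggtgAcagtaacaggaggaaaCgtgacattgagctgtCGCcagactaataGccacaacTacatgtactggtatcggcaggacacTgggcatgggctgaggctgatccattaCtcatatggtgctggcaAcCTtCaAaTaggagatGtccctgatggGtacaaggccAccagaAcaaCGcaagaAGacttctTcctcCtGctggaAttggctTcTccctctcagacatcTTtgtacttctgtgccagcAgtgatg
Trbv13-3 (chr6:41130292-41130585): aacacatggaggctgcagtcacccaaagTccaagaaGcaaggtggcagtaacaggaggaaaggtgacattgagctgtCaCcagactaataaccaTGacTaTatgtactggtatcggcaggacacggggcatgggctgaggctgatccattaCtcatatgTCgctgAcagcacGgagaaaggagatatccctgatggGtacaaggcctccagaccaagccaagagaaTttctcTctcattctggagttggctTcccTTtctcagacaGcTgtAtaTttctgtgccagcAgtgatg
Trav9-4 (chr14:53676337-53676630): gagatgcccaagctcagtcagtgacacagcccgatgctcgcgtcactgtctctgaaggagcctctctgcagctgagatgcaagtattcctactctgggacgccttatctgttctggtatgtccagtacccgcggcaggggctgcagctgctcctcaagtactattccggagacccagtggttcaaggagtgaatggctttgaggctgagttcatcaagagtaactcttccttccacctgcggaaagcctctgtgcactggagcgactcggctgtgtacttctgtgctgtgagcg
Trav9n-4 (chr14:53294737-53295030): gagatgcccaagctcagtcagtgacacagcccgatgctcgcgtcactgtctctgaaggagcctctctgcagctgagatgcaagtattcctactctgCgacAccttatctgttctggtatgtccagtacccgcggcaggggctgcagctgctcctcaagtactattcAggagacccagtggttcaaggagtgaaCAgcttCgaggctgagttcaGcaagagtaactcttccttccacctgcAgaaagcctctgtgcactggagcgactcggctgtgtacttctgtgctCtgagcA
Trbv13-1 differed from Trbv13-2 at 33 bases and Trbv13-3 at 24, and Trav9n-4 differed from Trav9-4 at 10. Over whole annotated transcripts, 18.35% of the 25-base windows of Trbv13-2 also occurred in another gene, mostly in Trbv13-3. For Trav9-4 that share was 79.78%, mostly in Trav9n-4. Counts of Trav9-4 are therefore uncertain between the copies.

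The 4 libraries held 4625354 and 9116800 counts in WT and 2899946 and 4438454 in Tg. Values below are CPM, the counts of a gene relative to all counts of its library, scaled by the trimmed mean of M values, and the fold change given with each gene is the log2 fold change of Tg over WT from edgeR's quasi-likelihood fit, with its standard error. WT library 2 stood apart. It was the deepest and yet had the fewest detected genes, 14415 after thinning to equal depth against 16975 to 17822 in the other 3. On the first principal component of the 4 libraries, which held 48.6% of the variance, it scored 72.4 and the others between -44.2 and -5.95. In bulk libraries, fewer cells with a transcript and less of it per cell cannot be told apart. Markers of Tregs were high in all 4 libraries. Foxp3 stood at 1880 and 2173 CPM in WT and 2153 and 2314 in Tg, and Ctla4, an inhibitory receptor, at 1737 and 2336 against 2134 and 2238. Cd4 was at 754 and 882 CPM in WT and 694 and 655 in Tg. None of these passed the test (adjusted p from 0.554 to 0.896, edgeR).

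In all, 42 genes passed an adjusted p of 0.05 (Benjamini-Hochberg over all genes tested), which is 0.318% of the genes tested. Of these, 16 were higher in Tg (0.121%) and 26 lower (0.197%). Receptor genes made up 16 of the 42, with 9 higher and 7 lower. The other 26 split into 7 higher and 19 lower. At an unadjusted p below 0.05, 4.75% of genes were higher and 3.98% lower. A fit of the compared groups only called 4 other genes and 6 receptor genes. Without WT library 2, 71 other genes passed, 22 of them among the 26. Leaving out WT library 1 gave 331 other genes, 263 of them higher in Tg, and included all 26. Without Tg library 1 the count was 13, and without Tg library 2 it was 35, with 10 and 12 shared.

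**Figure D1:**
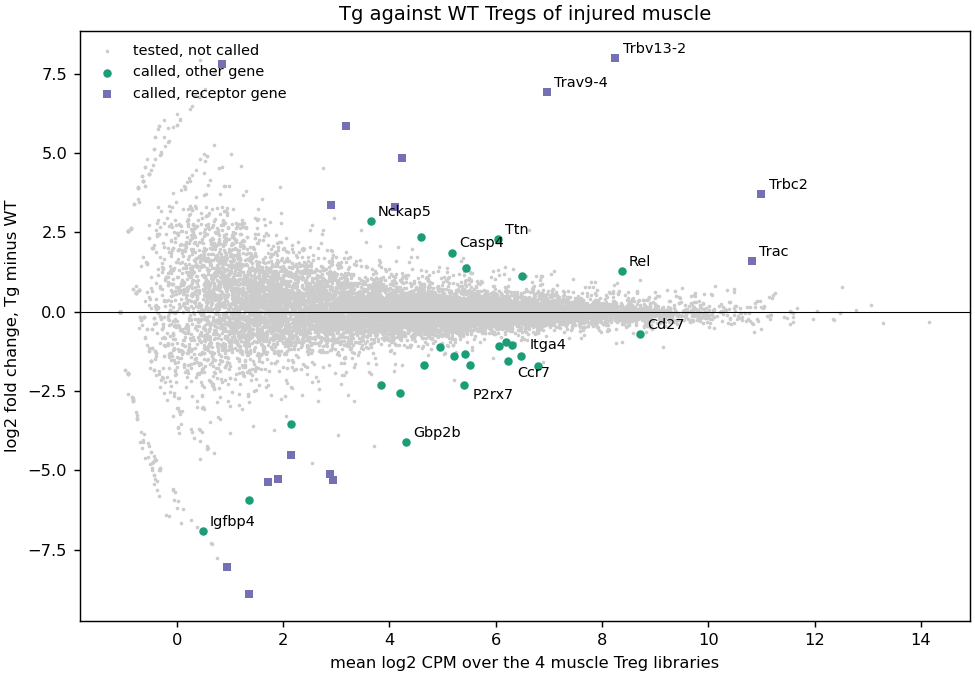
Log2 fold change of Tg over WT muscle Tregs (vertical axis) against the mean log2 CPM of the 4 muscle libraries (horizontal axis), 1 point per gene tested. The 16 called receptor genes are squares and the 26 other called genes are large circles. Trbv13-2, Trav9-4 and Trbc2 lie far above all genes of like abundance, and the fitted values of genes with no counts in 1 genotype, such as Igfbp4, depend on the small count that the fit adds.

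Receptor genes gave the largest changes among abundant genes. The Tg cells were sorted on Vβ8, the protein of the Trbv13 family, and the WT cells were not. Such a gate by itself selects for Trbv13 counts and against other beta V segments. Changes in these, and in the breadth of Trbv use, therefore cannot be told apart from the gate. Trbv13-2, gene body chr6:41121396-41121832, stood at 15.6 and 21.96 CPM in WT and 4704 and 5039.5 in Tg. The fold change was 8.00 ± 0.25 (adjusted p = 3.16e-10, edgeR). It took 4.13% and 4.71% of all Trbv counts in WT but 98.4% and 97.9% in Tg. Trav9-4 was at 10.4 and 11.7 CPM in WT and 1209 and 1501 in Tg, a fold change of 6.93 ± 0.18 (adjusted p = 5.80e-12, edgeR). Its share of Trav counts was 3.94% and 3.75% in WT and 84.0% and 90.7% in Tg. The near copy Trav9n-4 held 3 and 19 counts in WT and 9 and 11 in Tg. Of the related Vβ8 members, Trbv13-3 had 8.81 and 10.2 CPM in WT and 20.6 and 25.3 in Tg, and Trbv13-1 had 13.8 and 8.83 against 7.85 and 15.2. Neither passed the test (adjusted p = 0.205 and 0.987, edgeR).

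The breadth of V use differed as strongly, and for Trbv the gate alone narrows it. The effective number of segments, the inverse of the summed squared shares, was 10.1 and 10.9 for Trbv in WT and 1.03 and 1.04 in Tg. For Trav it was 35.8 and 27.3 in WT and 1.41 and 1.22 in Tg. In WT the most used beta segments were Trbv1, at 22.9% and 10.9% of Trbv counts, and Trbv3, at 9.096% and 15.9%. Beyond the transgenic pair, Tg libraries still held Trbv1 at 0.102% and 0.920%, Trbv12-2 at 0.594% and 0.176%, and Trav17 at 2.44% and 1.47% of their families. Trav17 was as large a share in WT, at 1.54% and 3.04%.

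The 7 receptor genes that fell were all beta V segments other than Trbv13 members, and the Vβ8 gate selects against such segments. Trbv19 went from 39.3 and 34.1 CPM in WT to 0.748 and 1.23 in Tg (adjusted p = 1.85e-04, edgeR), and Trbv15 from 31.9 and 54.8 to 2.24 and 0.245. Trbv20, Trbv26 and Trbv2 had 13.5 to 19.9 CPM in the WT libraries and below 1 CPM in each Tg library. Trbv12-1 and Trbv17 had no count in either Tg library. Against a floor of 3 counts per library they were at least 15.2-fold and at least 8.59-fold lower. Trbv17 was called in 4 of 20 alternative analyses and rests on 50 and 38 WT counts. Without 1 Tg library the calls of Trbv12-1 and Trbv2 (Tg library 2), Trbv26 (Tg library 1) and Trbv17 and Trbv20 (either) were lost.

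Constant and joining regions moved too. Trbc2 was at 532 and 600.2 CPM in WT and 7079 and 7667 in Tg, a fold change of 3.70 ± 0.15 (adjusted p = 1.05e-09, edgeR). The other beta constant gene, Trbc1, had 511 and 532 CPM in WT and 348 and 410.4 in Tg and did not pass (adjusted p = 0.194). Trbc2 made up 51.0% and 53.0% of Trbc counts in WT and 95.3% and 94.9% in Tg. The 2 genes share 333 windows of 25 bases, near 46.06% of Trbc1 and 49.85% of Trbc2, so single reads can be split between them. Trac, the alpha constant gene, was at 915 and 1169 CPM in WT and 2855 and 3436 in Tg (1.59 ± 0.15, adjusted p = 6.91e-05, edgeR). The joining segment Trbj2-7 rose from 4.29 and 6.01 to 47.1 and 57.6 CPM, and Trbj1-1 from 1.81 and 2.33 to 19.8 and 23.5. Trbj2-7 took 33.2% and 32.6% of Trbj counts in Tg against 9.84% and 16.2% in WT. Among alpha joining segments Traj39 had the largest Tg share, 16.1% and 13.8% against 2.47% and 0.249%, on 13 and 1 WT counts. Traj60, an annotated joining pseudogene of the alpha locus, had no WT count and 12 and 36 counts in Tg, at least 12.7-fold higher, a call lost without WT library 2 or Tg library 2.

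Delta genes, which lie inside the alpha locus, were also higher in Tg. Trdv4 had 0 and 2.09 CPM in WT and 69.9 and 77.5 in Tg, and Trdc, the delta constant gene, 0.904 and 6.26 against 101 and 129.5. The fold change of Trdc was 4.83 ± 0.66 (adjusted p = 0.0359, edgeR). The 15 gamma-chain genes together held 10, 0, 0 and 3 counts in WT library 1, WT library 2, Tg library 1 and Tg library 2. Of the 10 markers of CD8 T, NK and gamma-delta T cells, Trdc among them, 5 were at or under the floor in all 4 libraries, Ncr1 at 0 in each. Their sum was 26.4 and 34.96 CPM in WT and 118 and 148 in Tg, most of it Trdc in Tg. Cd8a was at 0.736 CPM or less, Cd8b1 at 23.7 and 25.3 CPM in WT and 11.97 and 11.5 in Tg, and Tyrobp at 0.904 and 1.23 against 3.74 and 6.13. Their part in the delta gene difference was not tested. No 25-base window of Trdv4 occurred in another transcript, and 6.84% of those of Trdc did. Trdc lost its call without either Tg library.

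**Figure D2:**
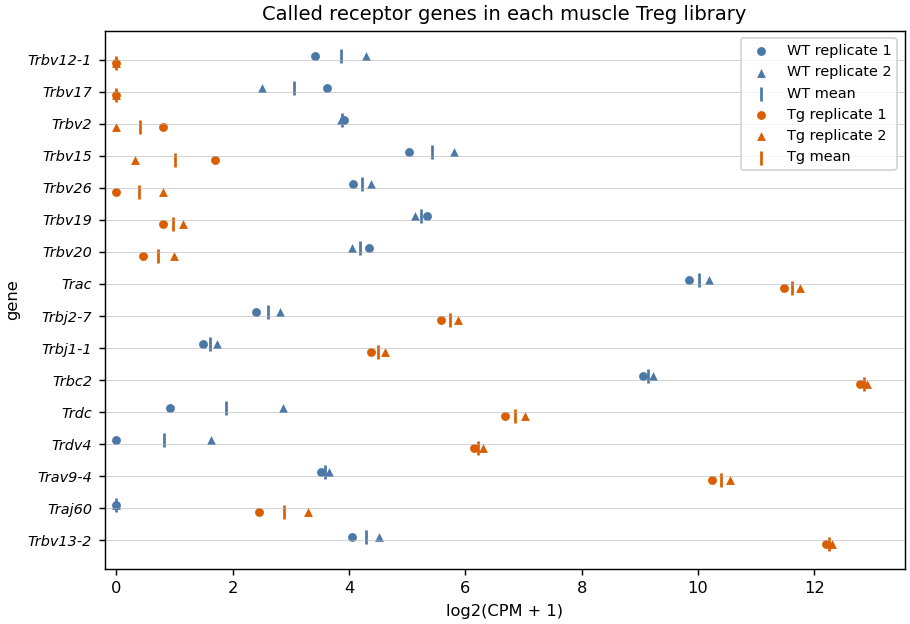
Log2(CPM + 1) of each called receptor gene (rows) in each muscle Treg library, with WT in blue, Tg in orange, circles for replicate 1, triangles for replicate 2 and a tick for the mean of the log values. In all 16 rows the Tg points are apart from the WT points, and 7 beta V segments lie at or near 0 in Tg.

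Outside the receptor loci, 7 genes passed with any 1 of the 4 muscle libraries left out: Rel and Ttn, higher in Tg, and P2rx7, Ccr7, Ckb, Igfbp4 and Gm14085, lower. In a fit of the compared groups only, P2rx7 and Ttn kept their calls, while Rel, Ccr7, Ckb, Igfbp4 and Gm14085 lost theirs. The calls of Igfbp4 and Gm14085 were also lost with limma-voom. In all 26 called genes both Tg libraries lay on 1 side of both WT libraries. Such non-overlap held for 18.3% of genes tested in the higher and 17.8% in the lower direction.

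Rel (chr11:23736847-23770970) encodes c-Rel, the NF-κB subunit that is needed for Treg development. It had 253 and 177 CPM in WT and 558 and 476 in Tg, a fold change of 1.27 ± 0.17 (adjusted p = 0.00166, edgeR). The 4 spleen values from the injured mice lay between 162 and 180.04 CPM, so c-Rel transcripts in Tg muscle were above every other Treg library. Ttn (chr2:76703980-76982547), the giant spring protein of muscle, had 33.4 and 26.4 CPM in WT and 164 and 125 in Tg (2.28 ± 0.20, adjusted p = 3.68e-05, edgeR). It was also higher in Tg spleen Tregs, 232 and 188 against 63.9 and 70.5 CPM. The 13 muscle fibre markers, Ttn among them, summed to 365 and 320.3 CPM in WT and 635 and 589.9 in Tg. Most of the sum was Neb and Ttn, and 6 of the 13 were at or under the floor in all 4 libraries. Acta1 was at 0.748 CPM or less and Ckm at 2.62 or less, while Mylpf (3.37 to 8.34 CPM), Tnnt3 (4.52 to 5.24) and Eno3 (7.91 to 12.4) were above the floor in each. Neb, a second giant fibre gene, had 309 and 267 CPM in WT and 449.5 and 440.5 in Tg and did not pass (adjusted p = 0.164, edgeR). What part fibre RNA has in the Ttn difference was not tested.

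The next 5 higher genes were less stable. Nckap5 had 4.52 and 4.42 CPM in WT and 23.9 and 40.7 in Tg (2.86 ± 0.47, adjusted p = 0.0129, edgeR). Its call was lost without Tg library 2. Casp4 (chr9:5308828-5336783), the inflammatory caspase that senses intracellular lipopolysaccharide, had 13.6 and 24.04 CPM in WT and 70.3 and 68.2 in Tg (1.85 ± 0.33, adjusted p = 0.0328). Casp1 next to it on chromosome 9 had 16.7 and 40.8 CPM against 64.7 and 67.2 and did not pass (adjusted p = 0.219). Mical3 was at 32.3 and 21.8 CPM in WT and 69.6 and 69.7 in Tg, and Nav2 at 76.2 and 46.7 against 149.6 and 118. Both lost their call without WT library 2 and without Tg library 1, and Mical3 also without Tg library 2. Over 21 alternative analyses, Nav2 was called in 9 and Mical3 in 13. Casp4 lost its call without either Tg library. Gm37347, a single-exon gene model of the class TEC, still to be checked by experiment (chr1:40088511-40091581), had 14.01 and 7.36 CPM in WT and 49.0 and 58.9 in Tg. It lies wholly inside Il1r2, the decoy receptor for interleukin-1, on the same strand. Il1r2 itself had 59.9 and 119 CPM in WT and 231 and 182 in Tg, and did not pass (adjusted p = 0.653). Of the 3047 windows of 25 bases in Gm37347, 2 occurred in transcripts of another gene, so it overlaps annotated Il1r2 transcripts little, if at all. Reads of unspliced Il1r2 RNA cannot be told apart from those of Gm37347. The call of Gm37347 held in 9 of 21 alternative analyses and was lost without WT library 2 or either Tg library.

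P2rx7 (chr5:122643911-122691432), the ATP-gated channel that can kill T cells exposed to extracellular nucleotides, fell in every alternative analysis run. It had 97.4 and 87.6 CPM in WT and 19.8 and 17.7 in Tg, a fold change of -2.31 ± 0.21 (adjusted p = 3.68e-05, edgeR). Spleen Tregs were higher throughout, at 271 and 314 CPM in WT and 179 and 169 in Tg. Art2b, the ectoenzyme that modifies P2rx7 with ADP-ribose, fell from 48.6 and 43.8 to 16.1 and 25.5 CPM (adjusted p = 0.0482, edgeR). Its call held in 8 of 21 alternative analyses and was lost without Tg library 1. Art2b shares 13.21% of its windows, mostly with the pseudogene Art2a-ps. Of the 14 tested genes of the P2rx7 and nucleotide list, those 2 were the ones that passed, against 0.197% of all genes tested called lower. The list median was -0.24, and -0.08 without WT library 2 or without Tg library 1. Dpp4 had 87.7 and 95.9 CPM in WT and 63.2 and 50.5 in Tg, and Nt5e, the adenosine-forming CD73, had 250.2 and 354 against 207 and 198.

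Of 21 tested genes of lymph node homing and resting cells, 3 were called lower, against 0.197% of all genes tested. Ccr7 (chr11:99144196-99155077), the receptor that leads cells to lymph nodes, had 149 and 110.2 CPM in WT and 40.4 and 46.9 in Tg, a fold change of -1.56 ± 0.19 (adjusted p = 6.72e-04, edgeR). Igfbp4 (chr11:99041244-99054392), an insulin-like growth factor binding protein, had 4.29 and 3.07 CPM in WT and no count in either Tg library, which is at least 3.96-fold lower against the floor (adjusted p = 0.00305, edgeR). Gpr83, a G protein-coupled receptor of Tregs, fell from 44.5 and 20.98 to 4.86 and 7.60 CPM, a call that was lost without either Tg library. The list median was -0.59, against -0.0054 over all genes tested, and 16 of the 21 genes were lower in Tg. Both Tg libraries lay below both WT libraries for 14 of them, against 17.8% of all genes tested. Foxp1, a transcription factor of resting T cells, had 232 and 188 CPM against 133 and 145 (adjusted p = 0.204). Leaving out 1 muscle library gave medians from -0.45 without WT library 1 to -1.09 without Tg library 2, and 3 to 6 called genes. The compared groups alone gave 0 calls, and limma-voom and a minimum log2 fold of 1 gave 1 each. With no low-count filter 8 were called, and with DESeq2 6. A replicate block, thinning and no robust dispersion gave 4 each.

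Sterol genes were lower as a group, with 21 of 23 negative and a median of -0.58, against -0.0054 over all genes tested. Of all 13188 genes tested, 6500 were positive. Hmgcs1, which makes the precursor of mevalonate, had 126 and 101 CPM in WT and 63.9 and 46.6 in Tg. It was called (adjusted p = 0.0493, edgeR), as 1 of 2 called genes of the list, against 0.197% of all genes tested called lower. Its call held in 6 of 21 alternative analyses and was lost without Tg library 1 or without Tg library 2. In 17 of the 23 genes both Tg values were below both WT values, against 17.8% of all genes tested. In the lower direction 11 had an unadjusted p below 0.05, against 3.98% of all genes tested. Mvd, of the mevalonate pathway, stood at 76.4 and 69.7 CPM in WT and 40.0 and 40.2 in Tg (adjusted p = 0.128).

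Gbp2b (chr3:142594847-142619179), an interferon-induced guanylate binding protein, had 75.3 and 85.9 CPM in WT and 3.37 and 5.64 in Tg, a fold change of -4.11 ± 0.52 (adjusted p = 0.00353, edgeR). It was the sole called gene among 32 interferon-induced genes, against 0.197% of all genes tested called lower, and it lost its call without Tg library 1. The list median was -0.13. It was 0.44 without WT library 2 and -0.51 without WT library 1, so WT library 2 set its direction. The neighbour Gbp2 had 192 and 287 CPM in WT and 139 and 176 in Tg (adjusted p = 0.470). Gbp2b shares 5.824% of its windows, mostly with Gbp2.

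Among adhesion and surface genes, Itga4 (chr2:79255426-79333123), the alpha4 integrin that binds VCAM-1, fell from 179.7 and 111 to 60.2 and 49.8 CPM (-1.40 ± 0.21, adjusted p = 0.00571, edgeR). Its call was lost without Tg library 2. Of 25 chemokine receptors and integrins it was the one that passed, against 0.197% of all genes tested called lower. The list median was -0.10, but 0.23 without WT library 2. Cxcr3, the receptor for interferon-induced chemokines, had 419 and 449 CPM in WT and 215 and 223 in Tg, just outside the threshold (adjusted p = 0.0665, edgeR). Cd27, a costimulatory receptor of the tumour necrosis factor family, fell from 533 and 544 to 339.9 and 315 CPM, the smallest called change (-0.72 ± 0.14, adjusted p = 0.0454). The call of Cd27 was lost without Tg library 1 or Tg library 2.

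Other called genes that were lower had mixed roles. Ckb, brain-type creatine kinase, fell from 88.4 and 73.4 to 26.9 and 24.04 CPM, and 20.53% of its windows occur in other genes, mostly a pseudogene. Angptl2, a secreted angiopoietin-like protein, fell from 212 and 188 to 68.1 and 54.2 CPM, and Prg4, the joint lubricant lubricin, from 42.7 and 45.0 to 5.98 and 8.59. Tbc1d4, a regulator of glucose transporter traffic, fell from 14.01 and 11.5 to 1.87 and 0.491 CPM, on 5 and 2 Tg counts. Fam49a had 51.1 and 38.4 CPM in WT and 11.6 and 15.7 in Tg, Abcb8, a mitochondrial transporter, 65.5 and 54.2 against 26.6 and 18.9, and Fam118a 102 and 99.97 against 54.2 and 49.5. Gm14085 had 9.94 and 11.8 CPM in WT and 0 and 0.245 in Tg, which is 1 Tg count. Without either Tg library, calls were lost for Angptl2, Abcb8 and Fam118a, and without Tg library 1 for Prg4 and Fam49a. Tbc1d4 kept its call only without WT library 1 among the 4 muscle libraries left out in turn. Over 21 alternative analyses, Abcb8 was called in 5 and Tbc1d4 in 9. For Gm14085 the ratio was 75.1 with an exact interval of 13.3 to 2989, covering counting error only. Gm14085 shares 43.72% of its windows, mostly with the nucleoside transporter Slc28a2.

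H2-Ob, a modulator of MHC class II loading, fell from 63.5 and 74.7 to 36.6 and 18.9 CPM (-1.35 ± 0.25, adjusted p = 0.0348, edgeR). Its call held in 10 of 21 alternative analyses and was lost without Tg library 2. Other MHC class II transcripts had higher values in Tg but did not pass. H2-Ab1 had 1.58 and 7.73 CPM in WT and 25.4 and 34.1 in Tg, and the MHC class II invariant chain Cd74 had 47.7 and 113 against 174 and 181. The 10 dendritic cell and MHC class II markers summed to 60.6 and 141 CPM in WT and 224 and 252 in Tg, and their part in these results was not tested. B cell markers summed to 31.6 and 37.0 CPM in WT and 15.7 and 21.8 in Tg, with 5 of the 10 at or under the floor in all 4 libraries. Most of the sum was Cd79b, at 25.3 and 34.1 CPM in WT and 12.3 and 16.4 in Tg, which did not pass (adjusted p = 0.219, edgeR). The part of B cell transcripts in the H2-Ob difference was not tested. The 16 macrophage and monocyte markers summed to 277 and 498 CPM in WT and 462 and 430.5 in Tg, with 7 at or under the floor in all 4 libraries. Most of that sum was Ctss, at 252 and 455 CPM in WT and 408 and 392 in Tg. The 10 fibroblast and endothelial markers summed to 171 to 195 CPM, most of it Pecam1 (164 to 190 CPM), with Pdgfra and Cdh5 at 0 in each library.

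**Figure D3:**
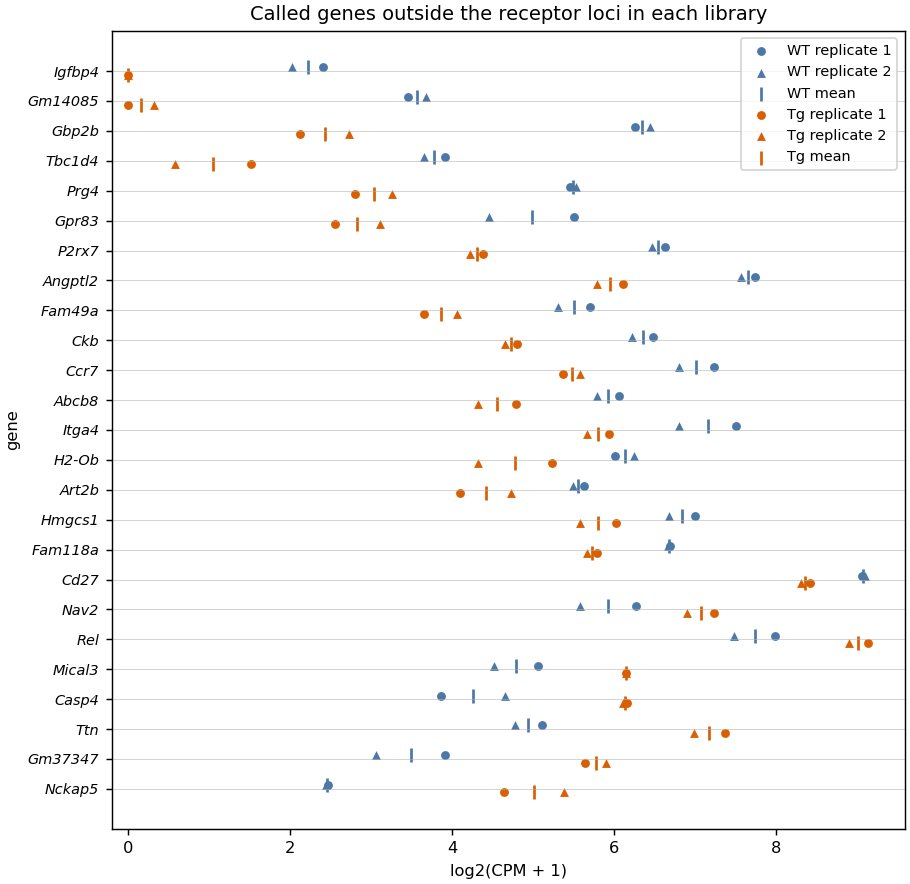
Log2(CPM + 1) of 25 of the 26 called genes outside the receptor loci (rows) in each muscle Treg library, with WT in blue, Tg in orange, circles for replicate 1, triangles for replicate 2 and ticks for means of the log values. WT and Tg points do not overlap in any of the 25 rows, and Igfbp4 lies at 0 in both Tg libraries.

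Activation and effector programmes held few calls. Of 30 TCR-induced genes, Rel was called, while 0.121% of all genes tested were called higher. With no low-count filter edgeR called 7 of the 30 higher, limma-voom 3 and DESeq2 2. The compared groups alone and a minimum log2 fold of 1 gave 0. The list median was 0.32, 25 were higher in Tg, and 10 had an unadjusted p below 0.05 against 4.75% of all genes in that direction. Leaving out 1 muscle library moved the median from 0.16 without Tg library 2 and 0.17 without WT library 1 to 0.53 without WT library 2. Fosl2, an AP-1 subunit, had 174 and 140.2 CPM in WT and 257 and 276 in Tg (adjusted p = 0.107), and Nr4a3, an orphan nuclear receptor induced by TCR signals, 199 and 142 against 346 and 309. Of 26 NF-κB genes, Rel was again the one called, with a median of 0.24 and 23 positive. Without WT library 1 that median was 0.08 with 18 positive. Traf1, an adaptor of tumour necrosis factor receptors, stood at 642 and 767 CPM in WT and 1051 and 981 in Tg (adjusted p = 0.149).

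None of the 28 tissue Treg effector genes passed at the settings used throughout (edgeR with the low-count filter and robust dispersion). With no low-count filter edgeR called 6 higher and 2 lower, and without robust dispersion 1 higher. The list median was 0.45, or 0.25 without WT library 1. Of the 28 genes, 11 had an unadjusted p below 0.05 in the higher direction, against 4.75% of all genes tested. In the lower direction it was 2, against 3.98% of all genes tested. DESeq2 called 4 higher and 1 lower, and limma-voom 3 higher. Penk, the precursor of enkephalins, had 19.0 and 68.0 CPM in WT and 286 and 247 in Tg (2.58 ± 0.55, adjusted p = 0.221). Havcr2, the checkpoint receptor TIM-3, had 56.0 and 72.6 CPM against 142 and 137, and Ebi3, a subunit of interleukin-35, 33.9 and 69.4 against 132 and 131. Lag3, an inhibitory receptor, lay in the other direction at 106 and 57.9 CPM in WT and 26.9 and 10.8 in Tg (adjusted p = 0.214). Il2ra, the high affinity interleukin-2 receptor chain, had 769 and 645 CPM in WT and 860.1 and 1261 in Tg (0.59 ± 0.16, adjusted p = 0.220). Of 23 genes of the TCR complex and proximal signalling, none passed at the same settings, and edgeR called 3 with no low-count filter and 1 each with a 5 CPM filter, a replicate block and thinning. In this list 5 genes had an unadjusted p below 0.05 in the higher and 1 in the lower direction, while DESeq2 called 2 and limma-voom 0. Trat1, a TCR-associated adaptor, came closest at 37.1 and 58.0 CPM against 95.7 and 121 (adjusted p = 0.0519), and it was called in 6 of 21 alternatives. Themis, a signalling protein of developing T cells, had 28.9 and 30.4 against 62.5 and 77.3.

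No gene of 5 further lists passed at these settings, and with no low-count filter edgeR called 2 higher and 1 lower in the Treg identity list and 1 higher and 2 lower in the type 1 list. The Treg identity list had 18 genes tested and a median of 0.05, and the glycolysis list 17 and 0.08. The cell cycle list had 30 genes and a median of -0.18, and the 11 tested type 1 and cytotoxic genes a median of -0.10. The 24 dissociation and heat shock genes, which report handling of the cells, had a median of 0.21. At an unadjusted p below 0.05, the identity list had 5 genes higher and 2 lower, the type 1 list 1 and 1, the dissociation list 2 and 0, and the glycolysis and cell cycle lists 0. Of all genes tested, 4.75% were higher and 3.98% lower at that p. DESeq2 called 1 identity and 1 type 1 gene and none of the other 3 lists, and limma-voom and thinning each called 1 type 1 gene. These medians turned sign when 1 muscle library was left out: the identity list ranged from -0.06 to 0.24, the glycolysis list from -0.01 to 0.12, the cell cycle list from -0.37 to 0.06 and the type 1 list from -0.48 to 0.03. The dissociation list stayed positive, from 0.10 to 0.28. Of the 14 inflammatory caspase and gasdermin genes tested, Casp4 was the called one, against 0.121% of all genes tested called higher. The list median was 0.05, or -0.03 without Tg library 2.

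**Figure D4:**
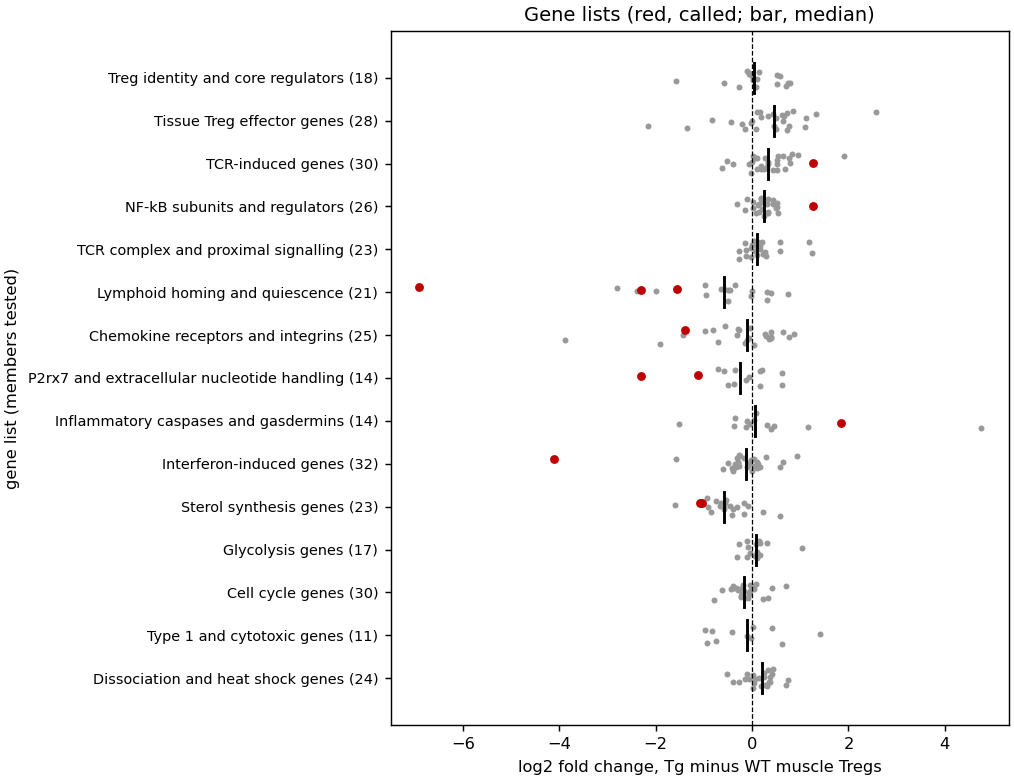
Log2 fold change of Tg over WT muscle Tregs for each tested member of 15 gene lists (rows, number tested in brackets), with called genes in red and a bar at each list's median. The dashed line is the median of all genes tested, and the bars of the lymphoid homing list (-0.59) and the sterol list (-0.58) lie farthest to the left of it; the leftmost point, Igfbp4, is a fitted value against no Tg count.

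Spleen Tregs of the same genotypes gave 172 called genes (1.3% of those tested). Of the 26 other genes called in muscle, 21 had the same sign in spleen, and 9 were called there. The spleen call was shared by Ttn, Nckap5, Nav2, Ccr7, Gpr83, Gbp2b, Prg4, Art2b and Gm14085. The difference between the 2 genotype effects passed for 18 genes (0.136%). Among these were Rel, P2rx7 and Igfbp4 of the 26, and Trbv13-2 and Trav9-4 of the 16 receptor genes, of which 15 were called in spleen too. Rel had a genotype effect of -0.06 ± 0.17 in spleen, and the difference was 1.33 ± 0.23 (adjusted p = 0.0434, edgeR). P2rx7 had -0.75 ± 0.18 in spleen, and the difference was -1.55 ± 0.27 (adjusted p = 0.0434, edgeR). Igfbp4 had 93.8 and 97.7 CPM in WT and 70.5 and 68.2 in injured Tg spleens, so its spleen levels were far above those of muscle.

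Il2ra and Cxcr3 were not called in muscle, yet their effects differed between the tissues. Il2ra was at 637 and 753 CPM in WT spleen Tregs and at 368 and 370.3 in Tg, a spleen effect of -0.91 ± 0.17, against 0.59 in muscle (difference 1.499 ± 0.23, adjusted p = 0.0245, edgeR). Cxcr3 had a spleen effect of 0.65 ± 0.21, which did not pass either (adjusted p = 0.19, edgeR), and a muscle effect of -0.99 ± 0.20. The difference was -1.64 ± 0.29 (adjusted p = 0.0468, edgeR). Itga4 had 60.2 and 49.8 CPM in Tg muscle and between 290.4 and 324 in the 4 spleen libraries from the injured mice, with a spleen effect of 0.04 ± 0.19. Its difference did not pass (adjusted p = 0.0805).

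**Figure D5:**
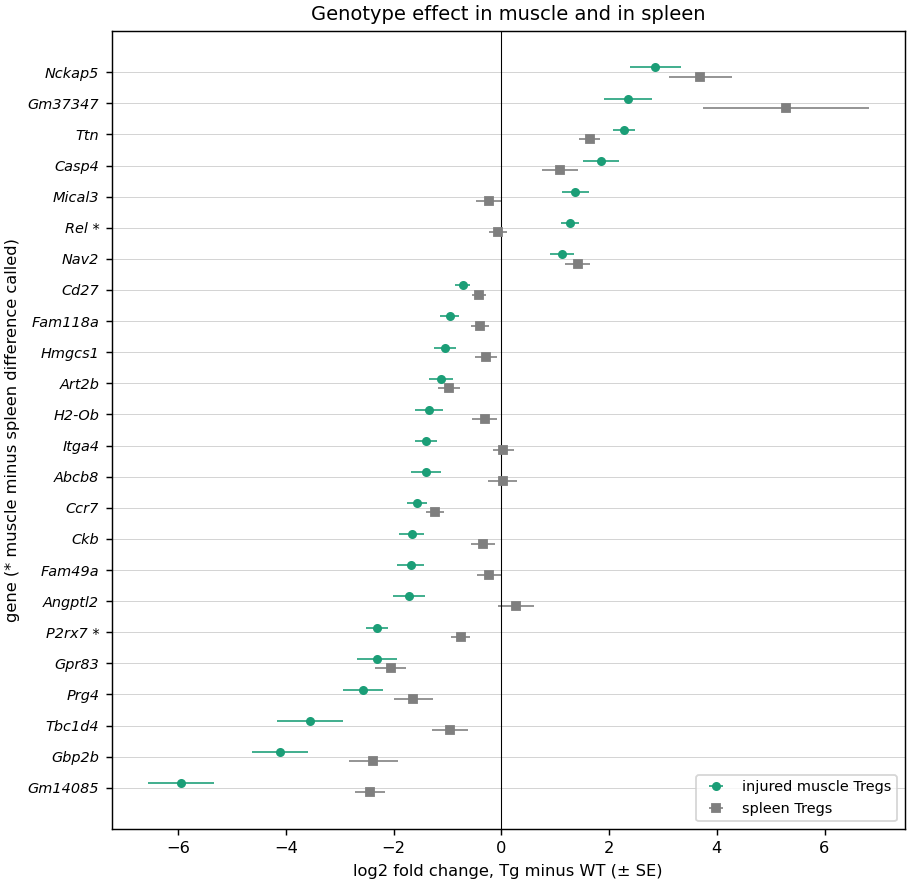
Log2 fold change of Tg over WT, with standard error, for 24 of the 26 called genes outside the receptor loci (rows) in injured muscle Tregs (circles) and spleen Tregs (squares). Stars mark genes whose muscle and spleen effects differ at an adjusted p below 0.05, and Igfbp4, with no Tg muscle count, is not drawn. Rel lies near 0 in spleen and above 1 in muscle, and the spleen value of Gm37347 is fitted against WT spleen libraries with no count.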

How the data were processed

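Gene counts were made by the authors with STAR 2.5.4 on mm10 and featureCounts, per the submitters' processing notes, and deposited as raw counts. Not given in the sources used here were the version, annotation and strand setting of featureCounts. Libraries were made from sorted cells with oligo(dT) priming and Nextera XT, which does not mark strand, and read as pairs of 25 bases, per the labels' protocols. Counting without molecular identifiers means that intervals and floors cover counting error only.

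All 10 Treg libraries, in 5 groups of 2, entered one edgeR 4.0.16 fit (R 4.3.3): filterByExpr, TMM scaling, robust dispersion, quasi-likelihood test and Benjamini-Hochberg adjustment at 0.05, with 5 residual degrees of freedom. With 2 libraries against 2, an exact permutation test of a single value cannot go below 0.333. Coordinates come from GENCODE M21 (GRCm38), which held 93.15% of the 52997 symbols. No pair of replicates agreed within counting noise (chi-square per degree of freedom from 5.90 to 31.9). DESeq2 1.42.0, limma 3.58.1 and 19 further settings served as alternatives. Genes were named by rule: called genes, uncalled examples among the 4 largest changes of each list at a mean log2 CPM of at least 4, and a fixed set of Treg and receptor genes with the 5 most used other V segments. Marker genes, and Il1r2, Slc28a2 and the near copies, were chosen after their values were seen. Some genes that the rule names, 1 of them called, are not reported here. The comparison and the gene lists were chosen with earlier results of these data known.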

Additional observations from a re-analysis of the deposited data

Results flagged for a closer look

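The genotype effect differed between muscle and spleen Tregs, by the test of the difference itself (edgeR, adjusted over all genes), for 7 of the genes described. On the log2 scale the muscle effect minus the spleen effect was 1.33 for Rel, -1.55 for P2rx7, -1.64 for Cxcr3 and 1.499 for Il2ra. For Igfbp4 the fitted difference was -6.45, which depends on the small count that the fit adds because both Tg muscle libraries held no count. It was 2.12 for Trbv13-2 and 1.65 for Trav9-4, whose levels in WT muscle and WT spleen Tregs were 18.8 and 61.5 CPM for the former and 11.02 and 10.1 CPM for the latter.

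Whole muscle, collected 8 days after injury and used in no comparison above, also held transgenic receptor segments. Trbv13-2 had a mean of 4.24 CPM over 3 Tg whole muscles and no count in 3 WT whole muscles. Trav9-4 had a mean of 26.1 CPM in Tg, and a single count in the WT muscles. Both gave the smallest p that an exact two-sided permutation test of 3 against 3 allows, 0.1.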

How the results depend on the processing

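Over 21 alternatives, no called gene named above changed direction. The counts of called genes outside the receptor loci, of called receptor genes and of genes whose muscle and spleen effects differed were 26, 16 and 18. They were 166, 29 and 140 with no filter on low counts, 77, 26 and 62 with DESeq2, 14, 2 and 13 with variable, diversity and joining segments removed, 5, 11 and 1 with a minimum log2 fold of 1, and 4, 6 and 4 in a fit of the compared groups only. Without robust dispersion 4 differences passed. Thinning to the smallest library gave 38, 17 and 24, limma-voom 34, 12 and 17, relative log expression scaling 24, 15 and 15, and a filter at 5 CPM 25, 15 and 15. Leaving out 1 of the 10 libraries gave 13 to 331 other genes, 11 to 30 receptor genes and 3 to 241 differences. A group left with 1 library is assumed there to vary like the others. The highest counts came without WT muscle library 1, which leaves WT library 2 as the sole control. The 3 differences came without Tg spleen library 1, and 61 without WT spleen library 1. Same-numbered libraries did not deviate together (correlation 0.094 between the WT and Tg muscle groups and -0.042 to 0.094 over all pairs of groups), which does not meet the rule for treating them as pairs, and the labels do not say whether they share an animal. A replicate block gave 25, 15 and 14. P2rx7, Ttn and Trbc2 were called in all 21 alternatives, and Trav9-4, Trbv13-2, Trbj2-7 and Trbv19 in all 20 that tested them. Cxcr3 was called in 7 of 21 and Il2ra in 1. Depth limits genes near the floor of 3 counts, which is 0.329 to 1.03 CPM in the muscle libraries.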
